A study of Mus musculus with 8 samples.

Results

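Peritoneal macrophages without Fra-1 were compared with those of floxed littermates on 4 of the 8 single-colour arrays of the series, the 2 arrays of each genotype. The controls were wild-type Fra-1lox/lox mice, and the knockouts were Fra-1lox/lox MxCre-/+ mice, so that both groups carried the floxed alleles and only the knockouts carried the recombinase. All mice were 8 weeks old, male or female, on a 129/C57Bl6 background. Cells elicited with thioglycollate, an irritant broth that draws monocytes into the abdominal cavity, were washed out, plated overnight and freed of everything that did not adhere before RNA was taken. Mx Cre is driven by an interferon-inducible promoter and is not restricted to macrophages; how it was induced is not given in the sources used here. Each array stood for 1 mouse as far as the stated numbers of mice show.

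Fra-1, the product of Fosl1, is a Fos-family subunit of AP-1, a dimeric transcription factor that binds DNA only after pairing with a Jun protein. It lacks the strong activation domain of c-Fos, so Fra-1 dimers can raise or lower transcription depending on the partner and the promoter. In macrophages AP-1 is known for its part in cytokine, protease and metallothionein expression.

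Each array's processed signals were divided by its 75th percentile and put on the log2 scale, so that 0 is the 75th percentile and 1 unit is a doubling. A feature, 1 probe per gene, was tested when its probe was well above background on both arrays of at least 1 group. Of the 22041 features tested, 13968 carried a gene symbol, 19927 were above background on all 4 arrays, 1808 were kept through the controls alone and 306 through the knockouts alone. The last 2 sets include features with an outlier spot left out on an array. The knockout arrays had 51.7% and 51.8% of spots well above background and the control arrays 56.2% and 57.2%. Arrays correlated at 0.992 within controls, 0.993 within knockouts and 0.984 to 0.987 between groups. Both controls and knockout 1 lay on 1 slide and knockout 2 on the other. Levels of different probes are not comparable, since probes differ in how well they bind, so a band of bright signal is a property of the probe as well as of the gene.

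Few single features passed the test. By limma with Benjamini-Hochberg adjustment 5 features, 0.0227% of those tested, had an adjusted p under 0.05, 1 higher (0.00454%) and 4 lower (0.0181%) in the knockout, and none of the 19927 features above background on all 4 arrays was among them. Without adjustment 781 features (3.54%) had a higher signal at p under 0.05, and 1210 (5.49%) a lower one. Among features above background on all 4 arrays the shares were 3.51% higher and 3.75% lower. These shares are the background for the counts of gene list members given below. With normexp background correction 1158 were higher and 975 lower, so the excess of lower features turned. The control and knockout arrays did not overlap for 27.9% of features in the upward and 18.7% in the downward direction, and the median difference over all features was 0.03.

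**Figure D1:**
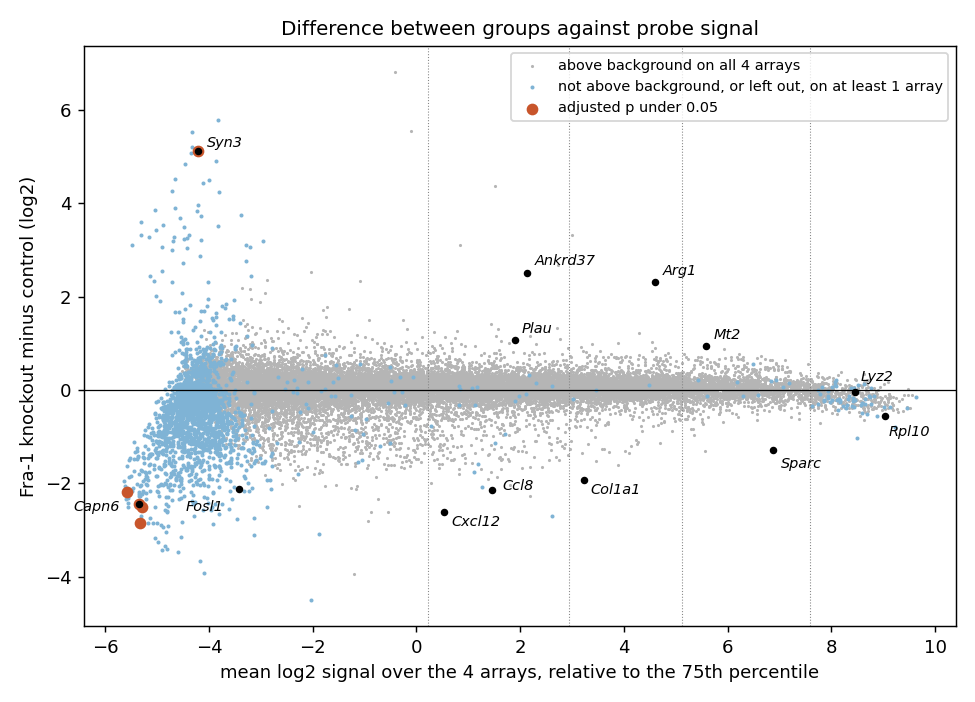
Difference between Fra-1 knockout and control means (log2, vertical axis) against the mean signal of the 4 arrays (log2 relative to the 75th percentile, horizontal axis) for each tested feature; dotted lines are the limits of the signal bands. The 5 features with an adjusted p under 0.05 all lie at the dim end, in the band from 50% to 100% of the ranking.

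Fosl1, the targeted gene, read −2.73 in control 1, −1.97 in control 2, −4.78 in knockout 1 and −4.18 in knockout 2. Both knockout arrays lay below both controls, and neither was well above background. By limma the knockout mean minus the control mean was −2.13 (SE 0.53, adjusted p = 0.336; −0.75 with normexp), at least 3.91-fold lower; this bound sets the control mean against the lowest signal well above background on each knockout array or the probe's own value, whichever was higher. Fosl1 therefore differed in the direction of its label without passing the test. Whether its single probe lies inside the floxed segment is not given in the sources used here, so the probe is no certain check of the label.

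The other members of the AP-1 family and its bZIP relatives, 26 of which were above background on all 4 arrays, had a median difference of 0.02 (−0.06 with slide as a block) and none passed, with 0 also at an unadjusted p under 0.05 by limma. Fosl2, which encodes the closest relative Fra-2, read 2.86 and 3.13 in controls and 3.19 and 3.15 in knockouts (0.17, SE 0.24). Jun, the c-Jun subunit with which Fra-1 pairs, read 6.14 and 5.92 against 6.11 and 6.17, and Junb, a weaker activator of the same kind, −0.56 and −0.60 against −0.52 and −0.62. For these 2 Jun genes the groups overlapped. Jund, the third Jun protein, read 5.01 and 4.99 in controls and 5.17 and 5.35 in knockouts (0.26, SE 0.12, limma adjusted p = 0.585). Fos itself read 1.83 and 2.14 against 2.20 and 2.15. Batf3, a bZIP partner of Jun that dendritic cells need, had the largest positive difference of the family, from 1.90 and 2.42 to 2.67 and 2.50 (0.43, adjusted p = 0.586 by limma; 0.17 without control 1). Nfe2l2, the antioxidant regulator Nrf2, read 5.36 and 5.37 against 5.66 on both knockout arrays, and Bach2, a repressor, −1.41 and −1.53 against −1.75 and −1.98. In all, 9 members lay higher and 1 lower without overlap, where 29.9% and 16.0% of features above background on all 4 arrays did so.

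**Figure D2:**
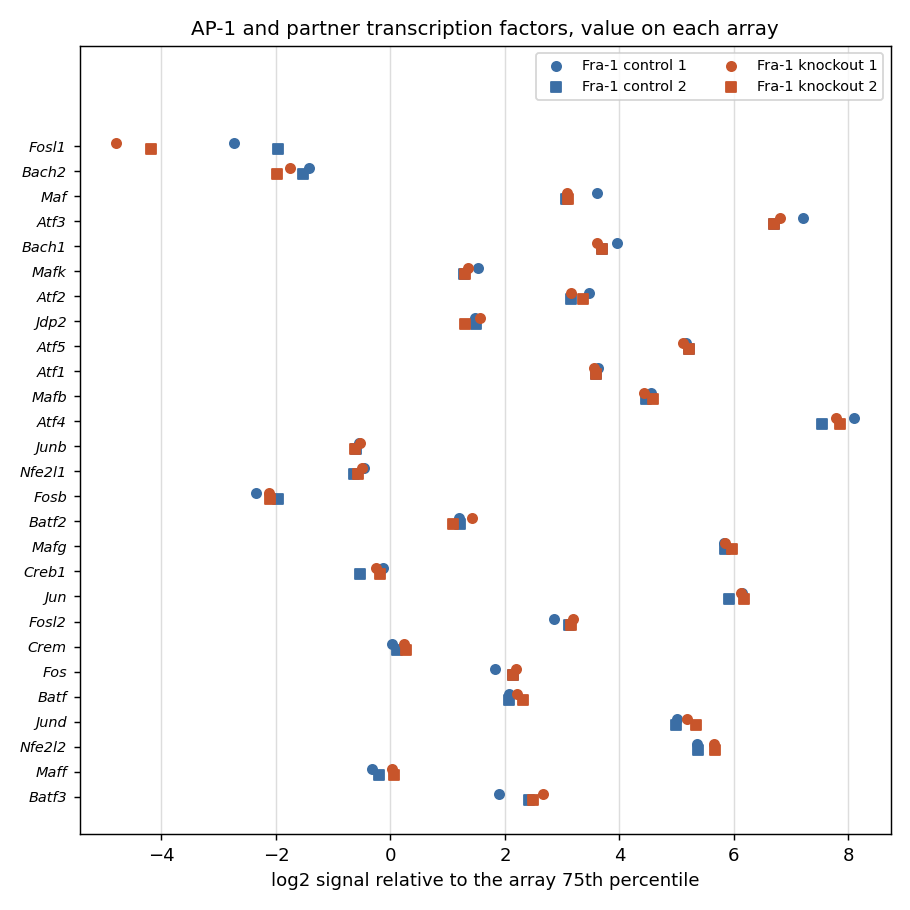
Signal of AP-1 and partner transcription factor genes on each of the 4 arrays (log2 relative to the array's 75th percentile, horizontal axis), controls in blue and knockouts in orange, ordered by the difference between groups. Fosl1 at the top has both knockout arrays left of both controls, and Batf3 at the bottom has the largest positive difference, 0.43.

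Promoters were searched for the AP-1 element TGANTCA, which reads the same on both strands, in windows from 250 bases before to 50 after the start site (RefSeq, GRCm38.p6). It occurred in 8.97% of genes with a promoter in that table (2425 of 27025) and in 6.79% of the tested genes with one (722 of 10630). Of tested genes with an unadjusted p under 0.05, 7.40% of the higher (25 of 338) and 9.11% of the lower (54 of 593) held it. Among genes named below for their signal band it was found in 1 of 11 higher genes, Mt2, and 0 of 16 lower ones. Stretches are shown only for genes whose window held the element, here Mt2 and Capn6. Mt2, a metallothionein, is a textbook AP-1 target, and Capn6 passed the test. No share was worked out for the genes that passed or for the textbook targets. Capitals mark the element, which starts at position −79 from the start site in Mt2 and −58 in Capn6. The printed stretch of Mt2 lies at chr8:94172489-94172595 on the plus strand and that of Capn6 at chrX:143827414-143827520 on the minus strand.
Mt2: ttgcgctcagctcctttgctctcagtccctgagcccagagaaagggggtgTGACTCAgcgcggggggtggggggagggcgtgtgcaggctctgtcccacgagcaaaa
Capn6: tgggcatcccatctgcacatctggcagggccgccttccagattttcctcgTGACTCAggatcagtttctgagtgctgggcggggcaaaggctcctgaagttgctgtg
A match is a description of the letters and no evidence of binding.

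The brightest probes, the top 2% of tested features (439, of which 234 had a symbol), differed little between genotypes. Their median difference was −0.14, with 2 features higher (0.456%) and 18 lower (4.1%) at an unadjusted p under 0.05 (9 and 13 with quantile normalization, 1 and 0 without control 1) and none passing limma's adjusted threshold. Quantile normalization moved that median to 0.01 and leaving out control 1 to 0.02. Control 1 itself lay 0.21 above the features' own means in this band, against −0.07 for control 2, −0.12 for knockout 1 and 0.01 for knockout 2.

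Of the 12 brightest genes, Tpt1, a translationally controlled protein of growing cells, read 9.92 and 9.49 in controls and 9.25 and 9.40 in knockouts (−0.38, SE 0.16, limma adjusted p = 0.576). Actb, cytoplasmic beta-actin, read 9.85 and 9.42 against 9.22 and 9.32 (−0.37, SE 0.16). Apoe, the lipid-carrying apolipoprotein that macrophages secrete, read 9.68 and 9.24 against 8.98 and 9.13 (−0.41, SE 0.17, adjusted p = 0.563 by limma). For each of these both knockouts lay below both controls, and control 1 was the highest array. Without control 1 the differences were −0.17 for Tpt1, −0.15 for Actb and −0.18 for Apoe. Mfge8, a bridge between phagocytes and dying cells, read 9.76 and 9.45 against 9.16 and 9.14 (−0.45, SE 0.26; −0.30 without control 1). Fth1, ferritin heavy chain, had 9.93 and 9.43 in controls and 9.52 in knockout 1, the spot of knockout 2 being left out as an outlier (−0.15, SE 0.28). The lysosomal proteases Ctsd (−0.11) and Ctsl (−0.23), and Exosc2, an exosome subunit (−0.18), were as close, and their differences turned positive with quantile normalization. Lyz2, which encodes lysozyme and was not among the 12, read 8.72 and 8.22 against 8.35 and 8.52. It overlapped between groups (−0.04; 0.10 with quantile normalization).

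Several of the 12 brightest genes had other probes with other readings. Kctd14, a channel-domain protein, and Slc10a1, a bile acid transporter of liver, had 1 probe each among the 12 brightest (−0.11 and −0.20), while their other probes were not well above background on both arrays of either group. Glrx2, a glutaredoxin, differed by 0.01 on its brightest probe and by 0.27 and −0.41 on the others. Actg1, cytoplasmic gamma-actin, had −0.80 (limma adjusted p = 0.505, knockout 2 left out as an outlier; −0.52 without control 1) on its brightest probe and −0.04 to 0.15 on the other 4. Whether these probes bind other transcripts was not tested.

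Within the top band, Rpl10, a protein of the large ribosomal subunit, read 9.56 and 9.06 in controls and 8.62 and 8.89 in knockouts (−0.56, SE 0.20, limma adjusted p = 0.489). Rpl37a, of the same subunit, read 9.31 and 9.05 against 8.73 and 8.78 (−0.43, SE 0.13, adjusted p = 0.421 by limma). Rpl34 went the other way, from 7.97 and 7.98 to 8.22 and 8.36 (0.31, SE 0.12, limma adjusted p = 0.532). None of these overlapped between groups and none passed. Niban2, a signalling scaffold, read 9.09 and 8.70 against 8.44 and 8.39 (−0.48), and Npc2, the lysosomal carrier of cholesterol, 8.00 and 7.66 against 7.43 and 7.51 (−0.36). With control 1 left out the 4 lower genes had differences of −0.30 (Rpl10), −0.28 (Niban2), −0.29 (Rpl37a) and −0.18 (Npc2). Over 72 cytosolic ribosomal protein genes above background on all 4 arrays the median was −0.06 (0.03 with quantile normalization), with 1 higher and 3 lower at an unadjusted p under 0.05, the third lower one being Rps14 (−0.33; −0.21 without control 1). Of 28 translation factors 0 were higher or lower (limma, also at an unadjusted p under 0.05), with a median of 0.02 (−0.02 with slide as a block). Proteasome subunits had a median of 0.09 over 35 genes (−0.00 with slide as a block). Of these 32 were positive, and 0 passed or had an unadjusted p under 0.05 by limma. Of all features, 26.7% in the top 2% band to 62.7% in the 10% to 25% band were positive. Psmb2, a subunit of the catalytic core, had 0.47 (0.22 without control 1) and Psmd6, of the regulatory lid, 0.28 (0.18 without control 1).

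In the next band, the 2% to 10% brightest (1764 features), 46 were higher (2.61%) and 21 lower (1.19%) at an unadjusted p under 0.05, and none passed by limma. The counts were 36 and 48 with quantile normalization, 47 and 50 with normexp, 30 and 34 with slide as a block and 49 and 80 without control 2, so the side with more features turned. Mt2, the metallothionein whose promoter is printed above, read 4.89 and 5.34 in controls and 5.99 and 6.14 in knockouts (0.94, SE 0.26, limma adjusted p = 0.387). Its neighbour in function Mt1 read 7.76 and 7.80 against 7.85 and 7.99 (0.14). Ccl2, the chemokine that recruits monocytes, read 4.37 and 5.20 against 5.61 and 5.48 (0.76, SE 0.27, adjusted p = 0.497 by limma). For Mt2, Mt1 and Ccl2 both knockouts lay above both controls, and the Ccl2 difference was 0.35 without control 1 and 1.18 without control 2. Rgs1, a regulator that dampens chemokine receptor signals, read 4.71 and 4.98 against 5.64 and 5.47 (0.71), and Slpi, a secreted inhibitor of neutrophil elastase, 5.30 and 5.71 against 5.94 and 6.80 (0.87; 0.44 within slide 1).

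Lower in this band were 2 matrix genes. Sparc, a collagen-binding glycoprotein, read 7.31 and 7.74 in controls and 6.52 and 5.95 in knockouts on its brightest probe (−1.29, SE 0.34, limma adjusted p = 0.363), with −0.74 and 0.13 on the others. Col1a2, a chain of type I collagen, read 5.97 and 6.46 against 5.19 and 4.60 (−1.32, SE 0.52, adjusted p = 0.540 by limma). Control 2 was the highest and knockout 2 the lowest array for both. Fibroblast markers were lower on the same arrays (median −1.38 over 15 genes), and their part in these differences was not tested. In a bulk sample fewer cells of a type and less RNA per cell cannot be told apart. C3, the central complement component, read 5.66 and 5.85 against 5.05 and 4.79 (−0.84), with −0.80 on a dimmer probe. Smarcc1, a subunit of the SWI/SNF chromatin remodeller, read 6.11 and 5.32 against 4.76 and 4.99 (−0.84; −0.45 without control 1), but −0.29 and −0.30 on its other probes.

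Between 10% and 25% of the ranking (3308 features), 118 were higher (3.57%) and 56 lower (1.69%) at an unadjusted p under 0.05, with none passing by limma. Quantile normalization gave 73 higher and 81 lower, and slide 1 alone 28 and 33. Slc2a6, a sugar transporter of lysosomes, read 4.04 and 4.19 in controls and 4.79 and 5.12 in knockouts (0.84, SE 0.25, limma adjusted p = 0.406), and a dimmer probe gave 0.85. Plbd1, a phospholipase B-like lysosomal protein, read 4.22 and 4.67 against 5.09 and 5.38 (0.79, SE 0.19, adjusted p = 0.335 by limma). Slamf9, a macrophage receptor of the SLAM family, read 2.58 and 3.12 against 3.79 and 3.55 (0.82), and the chemokine Ccl4 3.12 and 3.36 against 3.99 and 3.90 (0.71). These 4 genes lay higher on both knockout arrays than on both controls. Col1a1, the other chain of type I collagen, read 3.91 and 4.46 against 2.50 and 2.02 (−1.93, SE 0.66, limma adjusted p = 0.478). Map9, a microtubule-associated protein, read 5.21 and 4.33 against 3.41 and 3.44 (−1.34). Mtr, methionine synthase, read 4.87 and 3.56 against 2.29 and 3.09 on its brightest probe (−1.53; −0.87 without control 1), whereas its other probe gave 0.17.

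From 25% to 50% (5510 features), 187 were higher (3.39%) and 206 lower (3.74%) at an unadjusted p under 0.05, and none passed by limma. Signal required on all 4 arrays gave 214 higher and 204 lower, and leaving out control 1 gave 67 and 179. Cxcl12, the stromal chemokine that binds Cxcr4, read 1.29 and 2.38 in controls and −0.43 and −1.12 in knockouts (−2.61, SE 0.62, limma adjusted p = 0.317), and −2.23 on a dimmer probe. Ccl8, a monocyte chemokine, read 1.86 and 3.17 against 0.75 and 0.01 (−2.14, SE 0.44, adjusted p = 0.279 by limma). Lamb1, a laminin chain of basement membranes, read 1.50 and 1.95 against 0.17 and −0.32 (−1.80, SE 0.42). For all of these control 2 was the highest and knockout 2 the lowest. The part of the fibroblast markers, which were lower too, in these differences was not tested. Pacs1, a sorting adaptor of the trans-Golgi, read 2.90 and 1.76 against 0.17 and 0.69 (−1.90, SE 0.42).

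The higher genes of that band rested in part on control 1. Ankrd37, an ankyrin-repeat gene known to respond to hypoxia, read −0.78 and 2.54 in controls and 3.73 and 3.07 in knockouts (2.52, limma adjusted p = 0.540), and the difference was 0.85 without control 1. Lat, an adaptor of antigen receptor signalling, read 0.06 and 1.77 against 2.37 and 2.08 (1.31; 0.46 without control 1). Pilra, an inhibitory receptor of myeloid cells, read 1.46 and 2.63 against 3.43 and 3.30 (1.32; 0.73 without control 1). Serpinb1a, an intracellular inhibitor of neutrophil proteases, read 0.68 and 1.23 against 2.24 and 1.99 (1.16; 0.88 without control 1). In each of these genes control 1 was the lowest array.

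**Figure D3:**
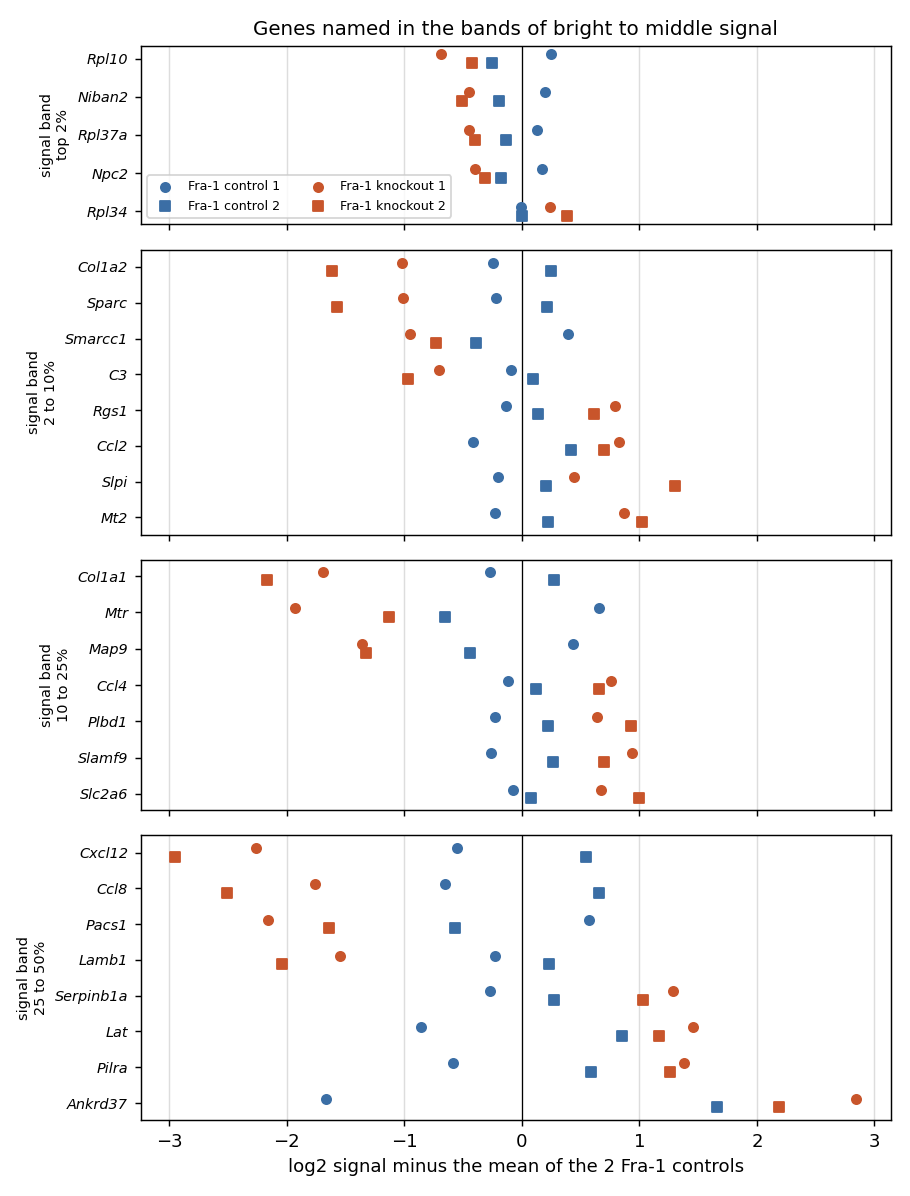
Signal of genes described in the 4 brighter bands on each array, as the difference from the mean of the 2 Fra-1 controls (log2, horizontal axis); panels run from the brightest band down. In the lowest panel Ankrd37 and Lat show control 1 far left of control 2.

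The dim end of the ranking, from 50% to 100% (11020 features), held 428 higher (3.88%) and 909 lower features (8.25%) at an unadjusted p under 0.05, and all 5 that passed, 1 higher (0.00907%) and 4 lower (0.0363%). The excess of lower features turned with normexp, to 690 higher and 474 lower. It was smaller when signal was required on all 4 arrays, with 387 higher and 487 lower among 9014 features of the band. That alternative repeats the fit and can use another probe for a gene. Syn3, a synapsin of synaptic vesicles, rose from −6.48 and −7.07, not well above background, to −1.49 and −1.81 (5.13, SE 0.33, limma adjusted p = 0.0219, at least 9.95-fold). Its other probe was not well above background on both arrays of either group. Capn6, a calpain without protease activity, fell from −4.10 and −4.17 to −6.59 and −6.55 (−2.44, adjusted p = 0.0163 by limma, at least 1.26-fold). A probe of chromosome 3, 93564825 to 93576725 in build mm9, named for its region only, fell from −4.22 and −3.85 to −6.55 on both arrays (−2.51, limma adjusted p = 0.0375, at least 1.35-fold); no gene annotation of that build was used here. The transcript ENSMUST00000045546 fell by 2.84 on the log2 scale (limma adjusted p = 0.0165, at least 1.47-fold), and Pcsk6, a convertase of secreted precursors, fell by 2.19 (limma adjusted p = 0.0219) from a level too near background for a bound. None of the 4 lower features was well above background on a knockout array. All 5 entered the test only through the group in which they were higher. The filter favours such differences, and the p-values do not allow for it. For 2 features, Capn6 and Pcsk6 (0.00908% of those tested), limma also gave an adjusted p under 0.05 for the difference between the Fra-1 and Fra-2 lines, but neither was well above background on any Fra-2 array. All 5 calls were lost with slide as a block (limma adjusted p 0.0719 to 0.115), with normexp, with no filter on dim probes and when any 1 Fra-1 array was left out.

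Further genes detected in a single group did not pass. Npas3, a neuronal transcription factor, read −7.12 and −7.07 in controls and −1.08 and −2.04 in knockouts (at least 10.6-fold, 7.62 to 14.8 with a knockout array left out, limma adjusted p = 0.288), Disp2, related to a transporter of Hedgehog proteins, −6.91 and −6.94 against −2.43 and −2.37 (at least 5.92-fold), and Kcnmb3, a potassium channel subunit, −6.83 and −6.93 against −2.87 and −0.75 (at least 8.90-fold, 4.27 to 18.5 with a knockout array left out). Npas3 had 2 more probes, neither well above background on both arrays of a group. In the other direction Defa25, an antimicrobial defensin of the gut, read −2.10 and −2.15 in controls and −6.40 and −5.70 in knockouts (at least 5.07-fold, adjusted p = 0.086 by limma). Prss21, a serine protease of testis, averaged −2.33 in controls, with control 1 at −2.67, against −6.48 and −5.53 (at least 4.39-fold). Cldn13, a claudin, averaged −3.18 in controls, with control 1 at −4.36, against −6.61 on both knockouts. Its bound rested on control 2, since it was at least 2.44-fold lower with both controls, 1.08-fold without control 2 and 5.52-fold without control 1. The knockout arrays of each gene lay on 1 side of both controls, as the filter favours.

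The arginine pathway, in which arginase competes with nitric oxide synthase for the same amino acid, was led by Arg1. It read 1.72 in control 1, 5.17 in control 2, 6.03 in knockout 1 and 5.48 in knockout 2. Both knockouts lay above both controls, but the controls were further apart from each other than control 2 was from either knockout. The difference was 2.31 (SE 1.05, limma adjusted p = 0.593), 0.59 without control 1 and 4.03 without control 2. Nos2, the inducible nitric oxide synthase, read −3.02 and −2.39 against −1.83 and −2.20 (0.69, SE 0.41; 0.38 without control 1), and Nos3, the endothelial form, −1.36 and −1.12 against −0.50 and −0.65 (0.66, SE 0.17, adjusted p = 0.345 by limma), with 0.92 on a dimmer probe. Ass1, which rebuilds arginine from citrulline, read 1.17 and 1.20 against 1.62 and 1.99, and Slc7a1, which imports arginine, 3.21 and 3.43 against 3.63 and 3.61 (0.30; 0.19 without control 1). The mitochondrial arginase Arg2 (−0.09), Odc1, which starts polyamine synthesis (0.08), and Srm, spermidine synthase (0.04), differed least. Of 17 genes of arginine and polyamine metabolism, all above background on all 4 arrays, 1 was higher and 0 lower at an unadjusted p under 0.05, and their median was 0.13.

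Among 24 textbook AP-1 target genes above background on all 4 arrays, 3 were higher (Plau, Mt2 and Ccl2) and 1 lower (Ezr) at an unadjusted p under 0.05, and 0 passed by limma. Their median was 0.23, beside 0.04 for all such features, and ran from 0.11 without control 1 to 0.42 without control 2. Plau, the urokinase that activates plasminogen, read 0.99 and 1.73 in controls and 2.62 and 2.25 in knockouts (1.08, SE 0.27, limma adjusted p = 0.344; 0.71 without control 1). Its receptor Plaur read 6.29 on both controls against 6.30 and 6.26. Mmp13, a collagenase, read −0.76 and 0.18 against 1.01 and 0.88 (1.23; 0.76 without control 1), and Vegfa, the angiogenic growth factor, 2.24 and 3.17 against 3.73 and 3.51 (0.92; 0.45 without control 1). The stromelysin Mmp3 and the gelatinase Mmp9 overlapped between groups (0.00 and 0.32). Spp1, osteopontin, read 6.60 and 6.73 against 7.28 and 7.15 (0.56), and Tnf, the inflammatory cytokine, 0.42 and 0.57 against 1.18 and 0.96 (0.57). Ezr, the membrane linker ezrin, read 3.46 and 3.20 against 2.65 and 3.01 (−0.49; −0.32 without knockout 1), Ccnd1, a cyclin, differed by 0.02 and Hmox1, haem oxygenase, by 0.07. Il6 was above background in controls only, −3.64 and −2.61 against −4.55 and −5.69 (at least 2.54-fold, limma adjusted p = 0.510).

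**Figure D4:**
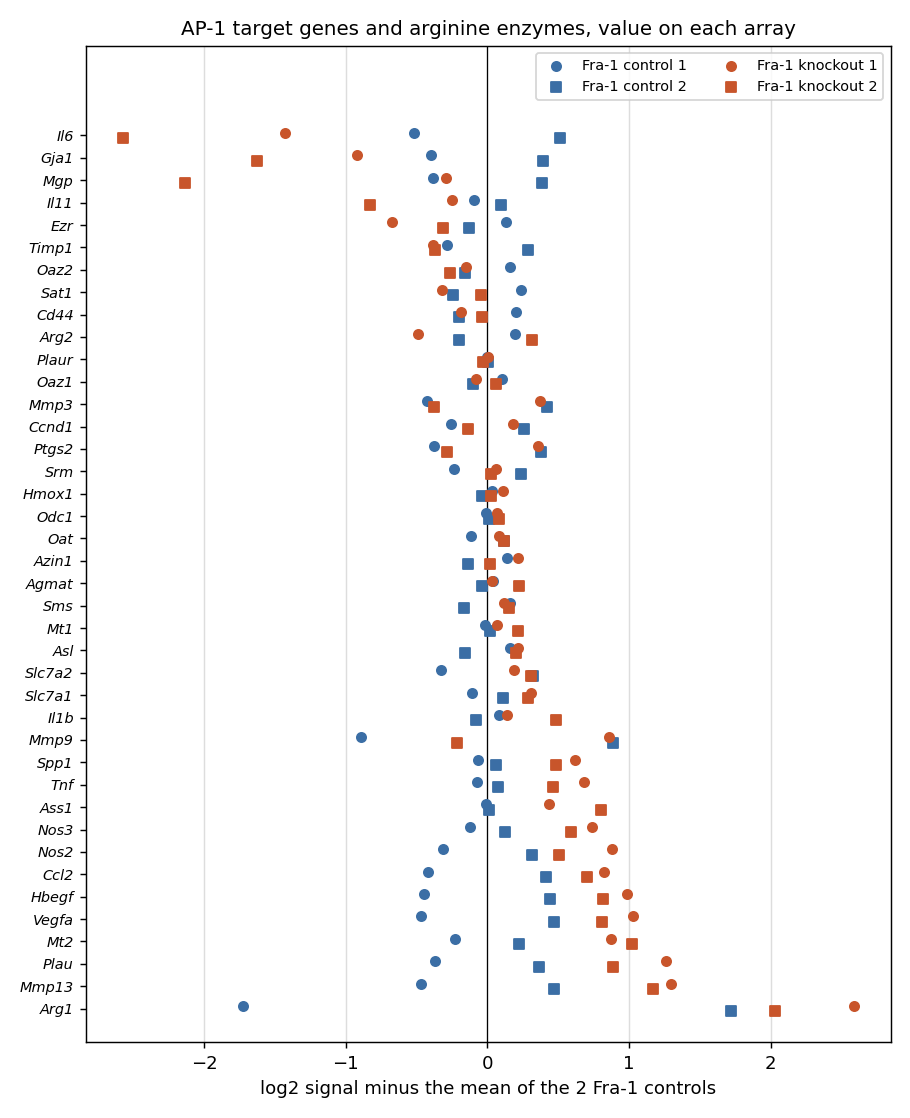
Signal of textbook AP-1 target genes and arginine enzymes on each array, as the difference from the mean of the 2 Fra-1 controls (log2, horizontal axis), ordered by the difference between groups. Arg1 at the bottom has control 1 far left of control 2, and Il6 at the top has the lowest knockout values.

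Macrophage identity was similar in both groups. Of 27 identity genes above background on all 4 arrays 2 were higher and 2 lower at an unadjusted p under 0.05, with a median of −0.05 (0.02 with quantile normalization), and 0 passed by limma. Adgre1, which encodes F4/80, read 6.50 and 5.89 in controls and 6.09 and 6.26 in knockouts, and Itgam, CD11b, 5.30 and 5.16 against 5.08 and 5.35, and both overlapped. Msr1, a scavenger receptor, read 2.74 and 2.89 against 3.38 and 3.30 (0.52, SE 0.12, limma adjusted p = 0.316; 0.31 on its other probe), and Aif1, the calcium-binding protein IBA1, 3.71 and 3.58 against 4.09 and 3.98. C1qc read 6.29 and 6.20 against 5.83 and 5.80 (−0.43, SE 0.17) and C1qa 4.90 and 5.25 against 4.67 and 4.68 (−0.40, SE 0.16; −0.23 without control 2), while C1qb, the third chain of the same complement protein, read 5.72 and 5.84 against 5.82 and 5.68 (−0.03). Csf1r, the receptor for the macrophage growth factor, read 8.69 and 8.12 against 8.01, knockout 2 being left out as an outlier.

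Genes of alternative activation, the state that interleukin-4 induces, had a median of 0.02 (−0.13 with slide as a block) over 20 members, with 1 higher and 1 lower at an unadjusted p under 0.05. Irf4, a transcription factor of that programme, read −0.70 and −0.46 in controls and −0.11 and −0.15 in knockouts (0.45, SE 0.14, limma adjusted p = 0.427), and Mgl2, a C-type lectin, 5.59 and 5.61 against 5.39 and 5.26 (−0.27, SE 0.11). Retnla, a secreted resistin-like protein, read 3.69 and 5.89 against 4.22 and 3.60, and Chil3, a chitinase-like protein, averaged 6.49 against 5.61 and 6.21. Arg1 is a member of this list too, and in Retnla and Chil3 control 2 was the highest array.

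Cytokines and chemokines, 28 of them above background on all 4 arrays, had 2 higher (Ccl2 and Ccl4) and 4 lower members (Cxcl12, Ccl8, Csf1 and Cxcl16) at an unadjusted p under 0.05, and none passed by limma. Cxcl16, a transmembrane chemokine, read 2.20 and 1.98 in controls and 1.54 and 1.50 in knockouts (−0.57, SE 0.15, limma adjusted p = 0.366), and Csf1, the macrophage growth factor, 1.61 and 2.44 against 1.31 and 1.26 (−0.74; −0.33 without control 2). The median was 0.29 (0.15 with slide as a block), and 15 members lay higher without overlap and 7 lower, beside 29.9% and 16.0% of features above background on all 4 arrays. Ccl5, a T cell chemokine, read 1.89 and 2.58 against 3.38 and 3.25 (1.08), Ccl3 3.65 on both controls against 4.08 and 4.21, and Il1rn, the antagonist of interleukin-1, 0.79 and 1.40 against 2.06 and 1.71 (0.79; 0.48 without control 1). The chemokine Ccl6 read 7.86 and 7.94 against 7.86 and 8.04. Neither Il10 nor Il12a, a chain of interleukin-12, was above background on both arrays of a group. The part of the fibroblast markers in the differences of the lower members was not tested.

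Sensors of viral RNA and DNA had 3 of 24 members higher and 0 lower at an unadjusted p under 0.05, a median of 0.13 (0.01 with slide as a block) and none passing by limma. All features above background on all 4 arrays had shares of 3.51% higher and 3.75% lower. Zbp1, which senses Z-form nucleic acid, read 0.92 and 0.90 in controls and 1.94 and 1.48 in knockouts (0.80, SE 0.24, limma adjusted p = 0.418). Trex1, which degrades cytosolic DNA, read 4.08 and 3.99 against 4.44 and 4.38, and Dhx58, the RNA helicase LGP2, 0.94 and 0.98 against 1.51 and 1.40. In each case both controls lay below both knockouts and close together. Of the 24 members 8 lay higher and 3 lower without overlap, beside 29.9% and 16.0% of all such features. The DNA sensor Cgas (0.12) and its partner Sting1 (−0.18) differed little.

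Actin cytoskeleton genes had a median of −0.06 over 42 members (0.02 with quantile normalization), with 1 higher and 4 lower at an unadjusted p under 0.05. Tagln, the smooth muscle protein SM22, read 3.05 and 3.41 in controls and 2.09 and 2.30 in knockouts (−1.03, SE 0.17, limma adjusted p = 0.181), and Acta2, smooth muscle actin, 3.17 and 3.64 against 2.20 and 2.22 (−1.19, SE 0.31). The groups did not overlap for either gene, and control 2 was the highest array. Fibroblast markers were lower too (median −1.38 over 15 genes), and their part in these differences was not tested. Fscn1, an actin bundler, had −1.13 (−0.58 without control 2) and ezrin −0.49, whereas Coro1a, an actin regulator of leukocytes, read 5.81 and 6.04 against 6.42 and 6.46 (0.51, SE 0.16, adjusted p = 0.435 by limma). Cfl1 (0.17), Pfn1 (0.20) and Lcp1 (0.07), which turn over or bundle actin in leukocytes, differed by at most 0.20.

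Axon guidance genes, which also steer migrating cells, had 7 of 24 members lower and 0 higher at an unadjusted p under 0.05, with a median of −0.14 (−0.35 without control 2), beside 3.75% lower and 3.51% higher among all features above background on all 4 arrays. Epha2, a receptor for ephrins, read −0.27 and 0.15 in controls and −1.18 and −1.58 in knockouts (−1.32, SE 0.21, limma adjusted p = 0.178), and Unc5b, a netrin receptor, 2.40 and 2.95 against 1.66 and 1.30 (−1.19, SE 0.23, adjusted p = 0.252 by limma). Slit3 (−1.42), Sema3b (−0.67), Efnb2 (−0.66; −0.40 without control 2), Robo1 (−0.61) and Efnb1 (−0.60) were the other lower members. Plxnb1, the receptor of Sema4d, was above background in controls only, −3.71 and −3.14 against −6.40 and −6.32 (at least 2.06-fold, limma adjusted p = 0.080). The receptors Plxnb2 (−0.16), Nrp2 (0.00) and Plxnd1 (0.17) differed little. Of the 24 members 7 had a positive difference, the largest 1.19, and 17 a negative one. By signal band, 26.7% to 62.7% of all features were positive. Without overlap 2 members lay higher and 9 lower, beside 29.9% and 16.0% of features above background on all 4 arrays. The part of the stromal markers in these differences was not tested.

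Insulin, IGF and BMP signalling had 7 of 24 members lower and 1 higher at an unadjusted p under 0.05, with a median of −0.32. Of all features above background on all 4 arrays 3.75% were lower and 3.51% higher, with a median of 0.04. Igfbp7, a secreted binding protein of growth factors, read −1.91 and −1.65 in controls and −2.79 and −3.32 in knockouts (−1.28, SE 0.26, limma adjusted p = 0.277). Bmp4, a ligand, read −1.66 and −1.06 against −2.88 and −3.22 (−1.69), and Igfbp6 1.83 and 2.22 against 1.15 and 0.54 (−1.18). The receptor Bmpr1a (−0.93), the inhibitor Smad6 (−0.96), the protease Bmp1 (−0.88; −0.37 without control 2) and Igfbp4 (−0.65; −0.35 without control 2) were the others. Acvrl1, the receptor ALK1, was the higher one, from 3.09 and 3.33 to 3.83 and 3.79 (0.60), and Igf1, which macrophages secrete, read 6.33 and 6.16 against 6.28 and 6.59. Fibroblasts and mesothelium also express several of these genes, and the part of their markers in the differences was not tested.

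**Figure D5:**
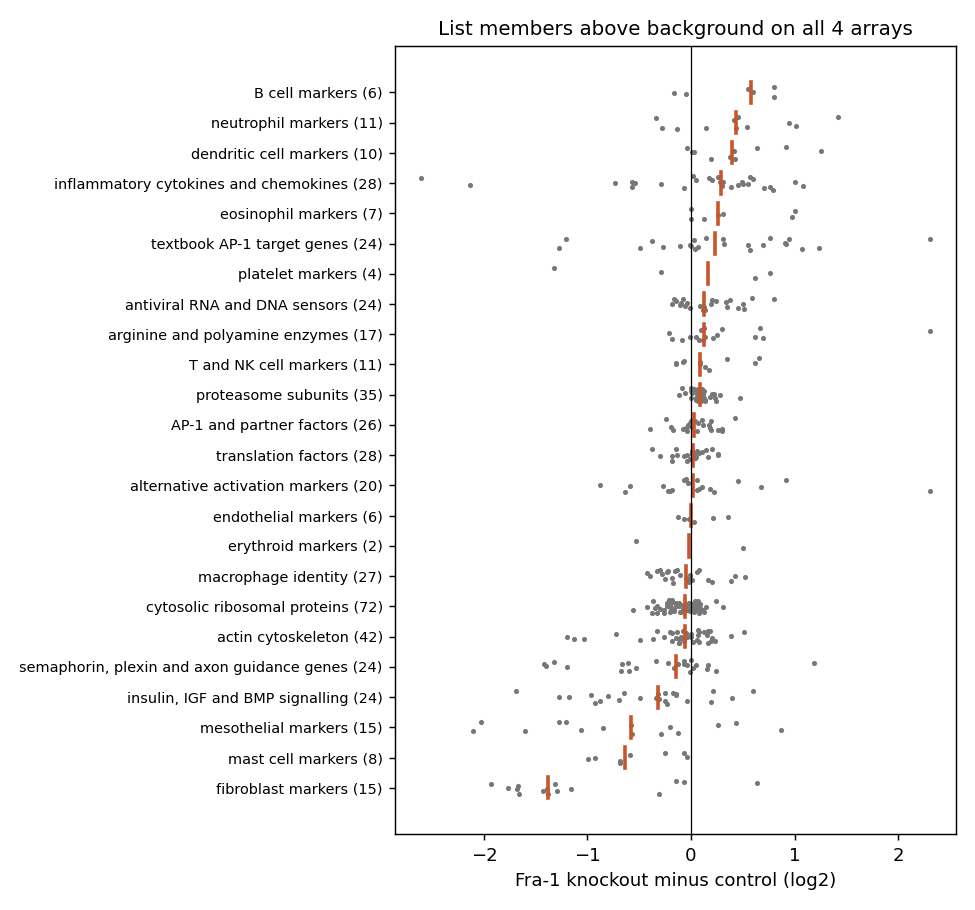
Difference between Fra-1 knockout and control means (log2, horizontal axis) for every member of each gene list that was above background on all 4 arrays; each grey point is a gene, the orange bar is the list's median and the number in brackets counts its members. Fibroblast markers lie lowest with a median of −1.38, and B cell markers highest with 0.58 over 6 genes.

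Markers of peritoneal stroma differed alongside these results. Of 15 fibroblast markers above background on all 4 arrays 10 were lower and 1 higher at an unadjusted p under 0.05, with a median of −1.38 (−1.07 without control 2, −1.03 within slide 1). Beside these counts and the mesothelial ones below, 3.75% of all features above background on all 4 arrays were lower and 3.51% higher. Summed over the tested markers, the signal in multiples of the 75th percentile was 606 and 771 on the control and 520 and 551 on the knockout arrays. Fn1, which overlapped between groups, made the largest part of this sum on every array. Col6a1, a collagen VI chain, read 2.68 and 3.35 against 1.80 and 0.91 (−1.66, SE 0.48, limma adjusted p = 0.400), Dcn, the proteoglycan decorin, 4.53 and 5.15 against 4.06 and 3.30, and Pdgfra, a growth factor receptor, 1.86 and 2.33 against 1.04 and 0.39. Fn1, which macrophages also make, read 7.76 and 8.02 against 7.66 and 7.98, and S100a4 was the higher member (0.64). Postn, Fbln1 and Lum were above background on 1 knockout array each, and Pdgfrb and Mfap5 on neither. Of 15 mesothelial markers 5 were lower, Lrrn4, Bnc1, Rspo1, Wt1 and Upk1b, and 1 was higher, Slpi, with a median of −0.58 (−0.33 within slide 1, −0.89 without control 1). Rspo1, a Wnt agonist, read 0.18 and 0.55 against −0.73 and −1.74 (−1.60), while Msln, mesothelin, read −0.31 and −0.23 against 0.00 and −0.80. The sums were 52.8 and 71.9 against 71.7 and 118, most of it from Slpi.

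Markers of other leukocytes followed. Neutrophil markers had 1 of 11 members higher, Csf3r, the receptor of G-CSF, which read 6.84 and 7.14 in controls and 7.38 and 7.42 in knockouts (0.41, SE 0.16, limma adjusted p = 0.532; 0.26 without control 1). Their median was 0.44 (0.21 without knockout 2, 0.26 without control 1). Their summed signal was 148 and 185 against 206 and 223, most of it from Csf3r. Ngp was not above background and Ly6g had no named probe. B cell markers had a median of 0.58 over 6 genes, which was −0.03 without knockout 1 and 0.04 without control 1, and a summed signal of 7.34 and 7.67 against 9.73 and 7.09. Cd79a, Pax5, Ebf1 and Blk were not above background. Of 11 T and NK cell markers 1 was higher, Cd5 (0.62, SE 0.22, adjusted p = 0.487 by limma), with a median of 0.09, sums of 83.1 and 72.5 against 81.0 and 82.7, and Cd8a, Ncr1, Klrb1c and Gzmb not above background. Dendritic cell markers had a median of 0.40 over 10 genes (0.15 without control 1) and sums of 305 and 282 against 300.4 and 305, with Ccr7, a homing receptor, at −0.67 and 0.99 against 1.39 and 1.43 (1.25; 0.42 without control 1) and Xcr1 not above background. Eosinophil markers had a median of 0.26 over 7 genes (0.11 without control 1, 0.45 without control 2, 0.72 with slide as a block), sums of 14.0 and 15.9 against 16.8 and 18.3, and Epx and Prg2 not above background. Mast cell markers were all negative (8 of 8, median −0.64, −0.34 without control 2, −0.15 with normexp). By signal band, 26.7% to 62.7% of all features were positive. The mast cell markers had 0 at an unadjusted p under 0.05 by limma and sums of 42.8 and 38.4 against 36.2 and 39.2. Cpa3, a mast cell carboxypeptidase, read −0.86 and −0.32 against −1.56 and −1.61. Ms4a2 and Mrgprb2 were not above background on both arrays of either group, nor Fcer1a on a knockout array.

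Platelet, endothelial and erythroid markers were sparse. Treml1, a receptor of platelet granules, was the 1 lower of 4 platelet markers at an unadjusted p under 0.05. It read 2.69 and 2.84 against 1.64 and 1.24 (−1.32, SE 0.46, limma adjusted p = 0.487). Pf4, a chemokine that macrophages also make, read 6.11 on both controls against 5.83 and 5.81. Without overlap 2 of the 4 lay lower and 2 higher, the latter including Tubb1 (0.62, and 0.24 without control 1). Of features above background on all 4 arrays, 16.0% lay lower and 29.9% higher without overlap. The median of the 4 platelet markers was 0.17 (−0.02 without control 1). The sums were 80.3 and 82.3 against 69.5 and 67.5, most of it from Pf4. Itga2b, Gp9, Ppbp, Gp6 and Gp5 were not above background. Endothelial markers had a median of 0.00 over 6 genes and sums of 31.8 and 27.5 against 30.7 and 33.6, with Cdh5, Tek, Tie1, Emcn, Cldn5 and Robo4 not above background. Of the erythroid markers Hba-a1 and Epor alone were above background on all 4 arrays, with sums of 0.689 and 0.276 against 0.456 and 0.585 over the list.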

How the data were processed

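The authors scanned each array in Cy3 and extracted it with Feature Extraction 11.5.1.1; the deposited signals are background-subtracted intensities, per the file headers. RNA input was 50 ng. The deposited series matrix holds log2 values centred on each probe's median; differences between arrays in it matched the scanner values (r = 1.00). Control spots and spots with outlier flags (191 to 317 on the Fra-1 arrays) were left out and repeats averaged. Probes were named by accession through RefSeq (GRCm38.p6), 28020 of 55681, while array headers give build mm9. The brightest probe stood for each gene. All 8 arrays entered 1 limma model (3.58.1, R 4.3.3) with a mean for each of 4 groups, which left 4 residual degrees of freedom, and p-values were adjusted by Benjamini-Hochberg; SE is the moderated standard error. Tables and figures used Python 3.11.15, pandas 2.3.3, numpy 2.4.6 and matplotlib 3.10.9. The fit was tested on simulated data.

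Named were Fosl1, Fosl2, Arg1, Nos2 and Lyz2, the 12 brightest genes, up to 4 higher and 4 lower genes per signal band (unadjusted p under 0.05, no overlap, largest difference), every called feature, and up to 3 members of each list by smallest p. Further list members were chosen after their values were seen. The members, the 24 gene lists and the tests were chosen with earlier results of these data known. Normexp used median signals with an offset of 50. Alternatives were normalization, background, filter, probe choice, slide, arrays fitted, prior, floor and single arrays left out. With 2 arrays a group their number limits the precision. Results for 2 genes that these rules or lists take in are not reported here.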

Additional observations from a re-analysis of the deposited data

Results flagged for a closer look

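The difference of Capn6 between genotypes in the Fra-1 line differed from that in the Fra-2 line by −3.41 on the log2 scale, by a limma test of the difference itself (adjusted p = 0.0174). In the Fra-2 line Capn6 read −6.74 in controls and −5.77 in knockouts on average. For Pcsk6 the same test gave −2.97 (adjusted p = 0.0445 by limma), with Fra-2 line means of −6.60 in controls and −5.81 in knockouts. Neither gene was well above background on a Fra-1 knockout array or on any of the 4 Fra-2 arrays, where the lowest signal well above background lay between −4.61 and −3.58. These differences therefore set signals near background against each other and have no bound. With a common floor the Fra-1 difference was −0.32 for Capn6 and 0.00 for Pcsk6.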

How the results depend on the processing

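Fosl1 and Arg1 kept their direction and their side of the threshold in every alternative that gave a value; requiring signal on all 4 arrays gives none for Fosl1. The 5 features called by limma became 27 with quantile normalization, 25 with a common floor, 28 with the 4 Fra-1 line arrays alone and 37 within slide 1. They became 0 with normexp, with no filter on dim probes, with signal required on all 4 arrays, with slide as a block and with a trended prior, and 2 to 3 when 1 Fra-1 array was left out. Of the 5, 4 were still called with quantile normalization, 1 with a common floor, 5 with the 4 Fra-1 line arrays, 2 within slide 1 and 0 with any 1 Fra-1 array left out. By direction, the higher call (1) became 8, 7, 11 and 30, then 0 throughout, and the lower calls (4) 19, 18, 17 and 7, then 0; with 1 array left out 1 to 2 were higher and 0 to 2 lower. At an unadjusted p under 0.05 the 781 higher features became 512 within slide 1 and 339 to 1149 with 1 array left out, and the 1210 lower became 793 with signal required on all 4 arrays. Small differences turned. Quantile normalization gave Lyz2 0.10, Kctd14 0.22, Ctsd 0.26, Slc10a1 0.14, Ctsl 0.083 and Exosc2 0.13; normexp gave Ctsd 0.034, Slc10a1 0.035 and Slc4a1 0.060. The mean of probes gave Glrx2 −0.039, Kdr −0.035 and Rpl6 0.57; requiring signal on all 4 arrays, where another probe stands for the gene, gave Actg1 0.15 and Rpl6 0.034. Slide as a block gave Glrx2 −0.023, and slide 1 alone Glrx2 −0.023 and Slc4a1 0.10. With 1 array left out, ranges crossing 0 were −0.29 to 0.21 (Lyz2), −0.41 to 0.10 (Fth1), −0.29 to 0.073 (Kctd14), −0.13 to 0.16 (Glrx2), −0.31 to 0.094 (Ctsd), −0.37 to 0.018 (Exosc2), −0.12 to 1.43 (Cd3d), −1.10 to 0.10 (Slc4a1) and −0.40 to 1.41 (Hba-a1). Except where another probe stood for the gene or fewer arrays were fitted, the cause was not tested. With an array left out the lone array of its group is assumed to vary like the other groups. Slide 1 holds a single knockout array, so its differences are those found without knockout 2, and its counts carry the same limit. No paired analysis was possible because the labels give no replicate numbers shared across groups. Signals near background limit the dim features, all 5 calls included.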
